A study of Mus musculus with 24 samples.

Results

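Round spermatids of mice with 1 copy of the Ago413 deletion (Ago413+/-) were compared with those of wild-type mice (Ago413+/+). The deletion on chromosome 4 removes all of Ago1 and parts of its neighbours Ago3 and Ago4. The heterozygous group held 4 libraries (replicates 1 to 4) and the wild-type group 3 (replicates 1, 2 and 4), chosen by genotype and cell fraction from the 24 bulk RNA sequencing libraries of the series. A further wild-type library, replicate 3, is called an outlier by its label and was left out. Of the 55536 genes in the deposited count table, 18565 had at least 10 counts in 3 or more of these 7 libraries and are described here. Null libraries (Ago413-/-, 4 libraries) entered the same fit and are given as a reference.

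Males were 10 to 15 weeks old. Testes of 2 to 5 mice of a genotype were pooled for each preparation, and cells were sedimented through a bovine serum albumin gradient into enriched fractions whose purity was judged by microscopy. A library is therefore a pool of animals and of nearby spermatid steps, and fewer cells of a type cannot be told apart from less RNA per cell. The allele was built in 129 embryonic stem cells with MICER targeting vectors, passed through a Sox2-cre cross on a C57BL/6 and Swiss Webster background, and backcrossed to C57BL/6J. The DNA next to the deletion on chromosome 4 can thus come from 129 mice in carriers, and such strain differences cannot be told apart from the deletion. Total counts ranged from 15446660 to 27433487 in wild-type and from 19034378 to 21041550 in heterozygous libraries.

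Argonaute proteins bind small RNAs and guide silencing of matching transcripts. In male germ cells they are also found in the nucleus, where the X and Y chromosomes are silenced during meiosis (meiotic sex chromosome inactivation) and stay largely repressed in round spermatids. Round spermatids are the haploid cells that leave the second meiotic division. They build the acrosome and the flagellum and later replace histones by transition proteins and protamines, partly with transcripts made earlier and stored.

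The fractions held the RNA of spermatids. The 14 genes of nuclear compaction (protamines, transition proteins and related genes) summed to between 22036 and 28881 CPM (counts scaled to library size) in wild-type and to between 16941 and 37236 CPM in heterozygous libraries. The 22 tested genes of synapsis and recombination summed to between 1490 and 1578 CPM in wild-type and between 1551 and 1677 CPM in heterozygous libraries. Markers of Leydig cells summed to at most 11.7 CPM in any of the 7 libraries and those of red blood cells to at most 9.86 CPM. Sertoli cell markers were more plentiful and uneven, between 269 and 596 CPM in wild-type and between 157 and 534 CPM in heterozygous libraries. Peritubular myoid markers were as plentiful, at 390 to 443 CPM in wild-type and 317 to 550 CPM in heterozygous libraries.

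Of the 4 genes called, 2 are near-copies of Hdac1, which encodes a histone deacetylase, so the sequences that tell the copies apart are shown first. Gm10093 (chromosome 17) and Gm4864 (chromosome 12) are annotated as processed pseudogenes, copies of a spliced transcript. Gm10093 differed from the Hdac1 transcript at 9 of 1444 aligned bases (99.4% identity) and shared 86.1% of its 31-base words with it. Gm4864 differed at 56 of 1442 aligned bases (96.1% identity) and shared 25.8%. Below is the 60-base coding stretch, within exon 5 of 14 of Hdac1, where the copies differ from Hdac1 at the most positions. Bases of a copy that differ from Hdac1 are in capitals, 5′ to 3′, from the GENCODE M21 transcripts (GRCm38).
Hdac1 (chr4:129522975-129523034, minus strand): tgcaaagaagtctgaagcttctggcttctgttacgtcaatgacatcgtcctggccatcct
Gm10093 (chr17:78492004-78492063, plus strand): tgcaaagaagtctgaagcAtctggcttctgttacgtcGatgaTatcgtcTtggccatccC
Gm4864 (chr12:77624528-77624587, minus strand): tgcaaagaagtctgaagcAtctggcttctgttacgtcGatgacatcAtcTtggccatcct
In this stretch Gm10093 has 5 differing bases and Gm4864 has 4. Reads from outside such positions fit more than 1 copy, so the counts of the 3 genes are uncertain where a sequenced animal differs from the reference.

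With edgeR's quasi-likelihood test, 4 genes were called (0.0215% of all tested genes) by a Benjamini-Hochberg adjusted p below 0.05 with a log2 fold change of more than 0.5 in either direction, and all were higher in heterozygous libraries. They were Gm10093, Gm4864, Tyr and Phc2. An unadjusted p under 0.05 was reached by 1681 genes. The filter on low counts was passed only through heterozygous libraries by 53 genes and only through wild-type ones by 10. P-values measure the spread between these pooled preparations, not between animals.

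Gm10093 was at 1.66, 1.44 and 1.47 CPM in wild-type replicates 1, 2 and 4. In heterozygous replicates 1 to 4 it was at 12.9, 12.1, 11.6 and 10.7 CPM. The groups were far apart and each was tight. The log2 fold change was 2.95 ± 0.17 (SE) with an adjusted p of 6.6e-07. Null libraries held 19.4 to 24.5 CPM.

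Gm4864 had no counts in the 3 wild-type libraries and stood at 3.00, 2.59, 4.37 and 3.93 CPM in the heterozygous ones. A count of 0 allows 3 counts in a library, at most 0.192 CPM, so the heterozygous mean was at least 18.1-fold higher (adjusted p = 9.6e-06). It passed the filter on low counts through heterozygous libraries alone. Null libraries held 6.26 to 7.40 CPM.

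Hdac1 itself, on chromosome 4 at 3.05 Mb from Ago1, was lower in every heterozygous library than in every wild-type one. Wild-type libraries held 229, 254 and 254 CPM and heterozygous libraries 182, 182, 214 and 179 CPM, with null libraries lower still at 137 to 150 CPM. Its log2 fold change of -0.38 ± 0.11 (SE) did not pass the test over all genes (adjusted p = 0.54). The sum of Hdac1 and its 2 copies was 247 ± 14.3 CPM (SD, n = 3) in wild-type, 204 ± 17.3 CPM (SD, n = 4) in heterozygous and 170 ± 8.04 CPM (SD, n = 4) in null libraries. The copies took 0.620 ± 0.087% of that sum in wild-type, 7.51 ± 0.46% in heterozygous and 16.7 ± 1.00% in null libraries (SD). The gain of the copies in CPM was thus smaller than the difference in Hdac1. The list of class I deacetylases held 5 tested genes with the 2 copies, and its other members, Hdac3 and Hdac2, had log2 fold changes of -0.21 and 0.04, neither called.

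Tyr encodes tyrosinase, the first enzyme of melanin synthesis (chromosome 7: 87424771 to 87493512). It had no counts in wild-type libraries and 0.803, 1.60, 1.04 and 0.831 CPM in the heterozygous ones, at least 5.56-fold higher (adjusted p = 0.0019). Null libraries held 1.95 to 2.51 CPM. Like Gm4864, it passed the filter through carriers alone. The 5 other tested pigment genes were not called: Pmel, Dct, Oca2, Mitf and a (the agouti gene) had log2 fold changes between -0.06 and 0.64. Vectors of the MICER resource were built with coat colour marker genes, and whether the Ago413 allele carries one is not given in the sources used here.

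Phc2 encodes a subunit of Polycomb repressive complex 1, which silences genes through histone H2A ubiquitylation. It lies at 128654702 to 128752881 on chromosome 4, 2.19 Mb from Ago1. Wild-type libraries held 38.5, 33.2 and 35.7 CPM and heterozygous libraries 63.6, 53.4, 61.2 and 60.4 CPM, so the groups did not overlap. The log2 fold change was 0.74 ± 0.11 (SE) with an adjusted p of 0.032, and null libraries held 70.1 to 75.4 CPM. The call was lost in the fit of the 7 compared libraries alone (adjusted p = 0.12) and in 6 of the 7 fits that left out 1 library, all but that without heterozygous replicate 2, with adjusted p from 0.097 to 0.38 in those 6 and log2 fold changes from 0.68 to 0.79 over all 7. Of the 21 tested genes of the complex, 20 were not called. The median log2 fold change of the list was 0.00, and its most abundant members, Phc1, Bmi1 and Scmh1, stood at 0.13, 0.19 and 0.21.

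**Figure D1:**
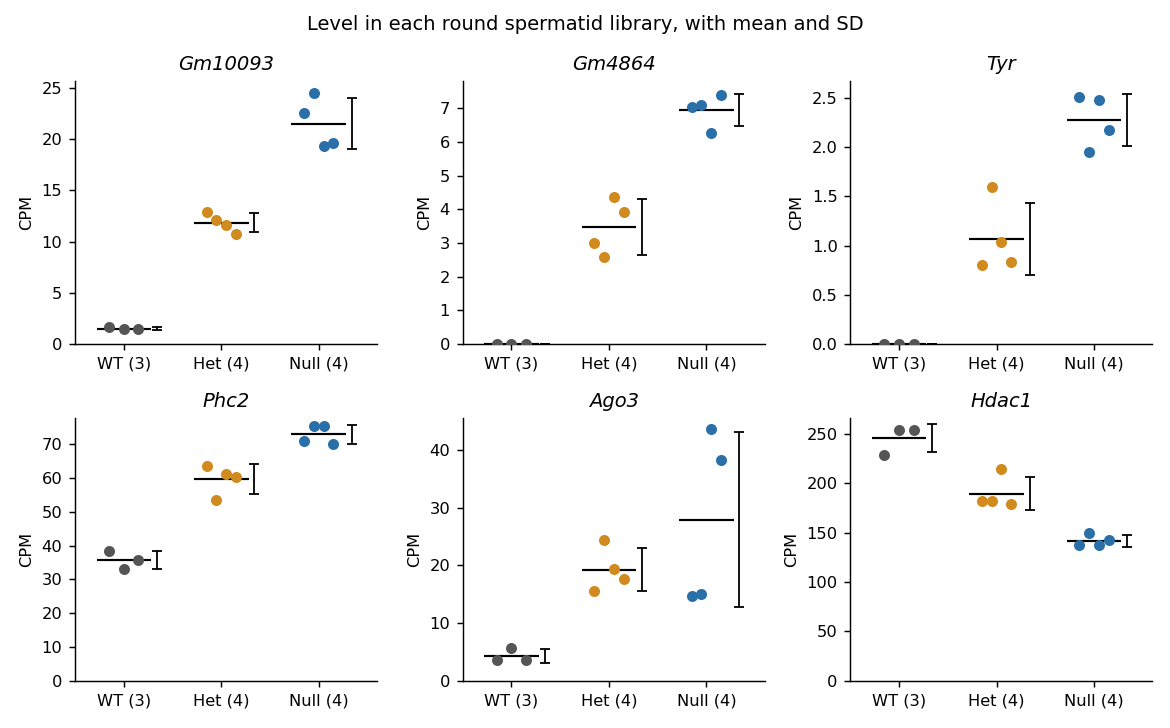
CPM of 6 genes in each round spermatid library (points), with the group mean (line) and SD (bar), for wild-type (WT, 3), heterozygous (Het, 4) and null (Null, 4) libraries on axes that start at 0. Heterozygous libraries sit between wild-type and null libraries for Gm10093, Gm4864, Tyr, Phc2 and Hdac1, while for Ago3 the null libraries lie on both sides of them.

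For the 4 called genes the heterozygous mean lay between those of the other genotypes. The difference from wild-type was 51.6% of the null difference for Gm10093, 50.01% for Gm4864, 46.9% for Tyr and 64.2% for Phc2, and 54.3% for Hdac1. Both differences use the same wild-type libraries. Between null and heterozygous libraries the adjusted p was 0.085 for Gm10093, 0.58 for Gm4864, 0.63 for Tyr, 0.63 for Phc2 and 0.63 for Hdac1, so edgeR called none of the 5 there. DESeq2 called Gm10093 in that comparison (adjusted p = 3.0e-06).

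The deleted genes were read next. Ago1 had 2.96, 4.28 and 2.62 CPM in wild-type libraries and 3.05, 2.42, 2.02 and 2.05 CPM in heterozygous libraries, which overlap through heterozygous replicate 1. Its log2 fold change was -0.47 ± 0.27 (SE) with an adjusted p of 0.60. In null libraries it had no counts, and null against heterozygous was the single call of that comparison (adjusted p = 2.1e-04). The null libraries thus match their labels. The 7 compared libraries held between 37 and 122 counts of Ago1 each.

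Ago3 stood out among the partly deleted genes. It was at 3.61, 5.65 and 3.58 CPM in wild-type libraries and at 15.6, 24.4, 19.4 and 17.6 CPM in heterozygous libraries, with no overlap. The log2 fold change was 2.16 ± 0.38 (SE). Its p was the fifth smallest over all genes, with an adjusted p of 0.16, so edgeR did not call it. Null libraries were split, with 14.7 and 15.0 CPM in replicates 1 and 2 and 43.6 and 38.3 CPM in replicates 3 and 4. DESeq2 called it (adjusted p = 3.1e-06), as did edgeR on the 7 compared libraries alone (adjusted p = 0.0012). Counts at Ago3 are over the whole gene, so they do not tell the intact from the truncated transcript.

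Ago4 had 18.97, 15.1 and 13.2 CPM in wild-type and 11.9, 14.6, 11.5 and 11.96 CPM in heterozygous libraries, with a log2 fold change of -0.33 ± 0.17 (SE, adjusted p = 0.56). Ago2, which encodes the Argonaute that cleaves its targets and is not deleted, was at 3.39 to 6.201 CPM in wild-type and 3.16 to 7.04 CPM in heterozygous libraries. Of the 13 genes of Argonaute and microRNA processing, which include Ago3, none was called by edgeR in the fit of the 11 libraries. Dicer1, Drosha and Dgcr8, which cut microRNA precursors or serve that step, had log2 fold changes of 0.23, 0.18 and -0.14. Tarbp2, the most abundant of the list and a partner of Dicer, was at 152 to 191 CPM in wild-type and 119 to 154 CPM in heterozygous libraries.

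Around the deletion, 139 genes within 5 Mb of Ago1 were tested, and the 5 Mb held Phc2, Ago3 and Hdac1. Within 2 Mb the median log2 fold change was -0.05 over 59 genes, and from 2 to 5 Mb it was -0.03 over 80 genes, against 0.01 over all genes. At an unadjusted p under 0.05, 7 of the 139 were higher and 9 lower. Over all genes 4.95% were higher (919 genes) and 4.1% lower (762 genes). Within 2 Mb the shares were 5.08% higher and 5.08% lower, and from 2 to 5 Mb they were 5.0% and 7.5%. The higher share was thus near the background and the lower share somewhat above it. Phc2 was the 1 called gene among the 139. Besides Phc2, Ago3 and Hdac1, the lowest p was that of Ndufs5, a subunit of respiratory complex I, with 35.4 to 43.3 CPM in wild-type and 23.1 to 29.7 CPM in heterozygous libraries (log2 fold change -0.68, adjusted p = 0.54). Among the others were Eif3i, Epha10, Utp11, Rbbp4, 1110065P20Rik and E330017L17Rik, which were lower, and Zfp362, Yars, Zmym4, Clspn and 1700086P04Rik, which were higher. With the outlier library added back, the log2 fold change of Zmym4 went from 0.51 to 0.07 and that of 1110065P20Rik from -0.28 to -0.16.

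Across all genes the shift was small. The median log2 fold change was 0.01, 51.6% of genes were positive, 89.2% lay within 0.5 of zero on the log2 scale and 203 lay beyond 1. In 785 genes (4.23%) every heterozygous library was above every wild-type one, and in 862 (4.64%) every one was below. The balance of the counts at an unadjusted p under 0.05 depended on single libraries. They were 284 higher and 485 lower without wild-type replicate 1, which lay at one end of the first principal component, opposite to heterozygous replicate 1. They were 322 and 543 with the left-out outlier library added back. They were 902 and 439 without heterozygous replicate 1, 1133 and 1278 without replicate 2, 608 and 776 without replicate 3, and 754 and 430 without replicate 4.

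**Figure D2:**
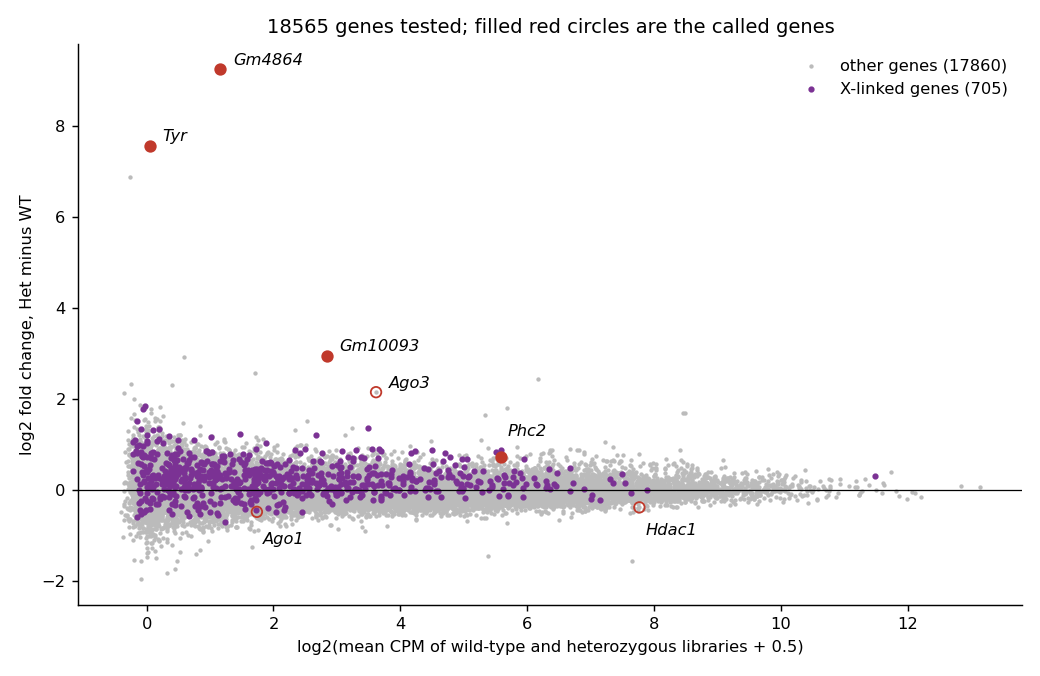
Log2 fold change of heterozygous against wild-type round spermatids (y axis) against mean level (x axis, log2 CPM + 0.5) for 18565 genes, with the 705 X-linked genes in purple. The 4 called genes are filled red circles and Ago1, Ago3 and Hdac1 open ones, and most X-linked points lie above 0.

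DESeq2 called 6 genes (0.0323% of all 18565), of which 5 were higher and 1 lower. It gave 10802 genes no adjusted p, so its correction ran over fewer genes than that of edgeR. It shared Gm10093 and Phc2 with edgeR and added Ago3, Satl1, 4933436I01Rik and Dapp1, while Gm4864 and Tyr were given no adjusted p because of their low counts. Satl1, an X-linked acetyltransferase-like gene, was at 33.7, 31.8 and 31.4 CPM in wild-type and at 69.8, 47.6, 49.9 and 63.3 CPM in heterozygous libraries. The uncharacterized X-linked gene 4933436I01Rik was at 5.35, 5.86 and 6.90 against 9.91, 16.2, 16.9 and 18.8 CPM. Neither gene overlapped between the groups. With the outlier library added back, the log2 fold change of 4933436I01Rik went from 1.36 to 0.61. Dapp1, which encodes an adaptor protein that binds phosphoinositides, was the single gene called lower, at 35.2, 30.2 and 34.5 against 20.6, 25.8, 24.9 and 21.2 CPM. In edgeR these 3 had adjusted p of 0.41, 0.54 and 0.54.

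After Ago3, the next gene in order of p was Satl1. Of the 8 with the smallest p that were higher without being called, 4 were X-linked: Satl1, 4933436I01Rik, Ppef1 and Cpxcr1. Ppef1, a protein phosphatase with EF-hand domains, was at 23.8 to 27.4 CPM in wild-type and 31.3 to 47.5 CPM in heterozygous libraries. Cpxcr1 was at 19.7 to 21.5 against 27.4 to 43.2 CPM. The other 4 were Ago3, Alcam, Bmpr2 and the long noncoding RNA Gm32281. Alcam and Bmpr2, a cell adhesion molecule and a receptor of bone morphogenetic proteins, were below 5 CPM in the 7 libraries, and their log2 fold changes of 1.47 and 1.18 became 0.92 and 0.65 with the outlier library added back. The 8 that were lower were Dapp1, Znhit3, 1700029P11Rik, Tceanc2, Svopl, Mien1, Rasl2-9 and 4930515G01Rik, with log2 fold changes from -0.46 to -1.72.

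X-linked genes as a whole sat above autosomal genes. The median log2 fold change was 0.23 over 705 X-linked genes and 0.00 over 17670 autosomal genes, a difference of 0.23. Of the X-linked genes 544 were positive (77.2%). At an unadjusted p under 0.05, 87 were higher (12.3% against 4.95% of all genes) and 0 lower. Of the 705, edgeR called none and DESeq2 called Satl1 and 4933436I01Rik. In 61 X-linked genes (8.65% against 4.23% of all genes) every heterozygous library was above every wild-type one and in 1 (4.64% of all genes) every one was below. Without wild-type replicate 1 the counts were 31 higher and 3 lower, against 284 and 485 over all 18565 genes. The difference from autosomes was then 0.18. With the outlier library added back the counts were 28 and 2, against 322 and 543 over all genes, and the difference was 0.19.

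By library the shift was graded, and the groups met without a gap. An X score, the mean log2 CPM over X-linked genes less the same mean over autosomal genes, was -1.53, -1.33 and -1.42 in wild-type replicates 1, 2 and 4. It was -1.33, -1.17, -1.26 and -1.09 in heterozygous replicates 1 to 4. Heterozygous replicate 1 thus lay beside wild-type replicate 2, and the other 3 lay above the wild-type libraries. Null libraries lay between -1.09 and -1.06, level with the highest heterozygous library. X-linked genes took 1.02 ± 0.05% of all counts in wild-type, 1.16 ± 0.14% in heterozygous and 1.34 ± 0.08% in null libraries (SD, n = 3, 4 and 4).

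The 3 most abundant X-linked genes overlapped between the groups. Akap4, the main scaffold of the fibrous sheath in the flagellum, was at 2537 to 2586 CPM in wild-type and at 4564, 2041, 2328 and 3732 CPM in heterozygous libraries. The heterozygous values lay on both sides of the wild-type ones, with replicates 1 and 4 high. Tsga8 and Prdx4 had log2 fold changes of 0.00 and -0.07. On the Y chromosome 171 genes were tested, most of them in multicopy families that share reads. Their median was 0.23, and 13 (7.60% against 4.95% of all genes) reached an unadjusted p under 0.05 as higher and 1 as lower, with none called. Without wild-type replicate 1 the median relative to all genes was 0.03, with 4 higher and 1 lower, and without heterozygous replicates 3 and 4 the count of 13 was 6 and 7. It was 4 with the outlier library added back.

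**Figure D3:**
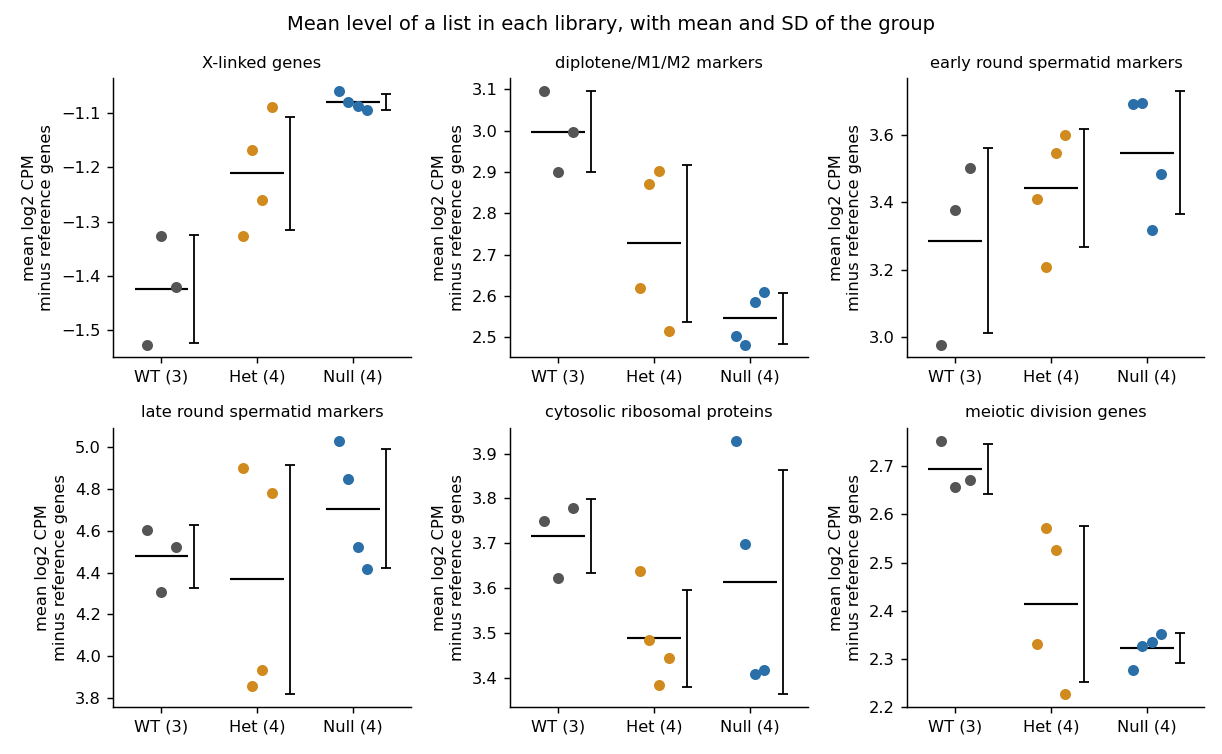
Mean log2 CPM of the genes of a list minus that of reference genes (autosomal genes for the X chromosome, all tested genes otherwise) in each library, with the group mean (line) and SD (bar). Heterozygous libraries lie mostly above wild-type ones for X-linked genes and below them for meiotic division genes, and they split into 1 and 4 against 2 and 3 for late round spermatid markers.

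Many genes of late meiosis had lower means in heterozygous libraries, although none was called and the groups overlapped in the mean level of the list. A list of 100 markers for diplotene to the second meiotic division (diplotene/M1/M2), which the study drew from its wild-type single cells, had 96 tested genes with a median log2 fold change of -0.27, and 87 were negative. At an unadjusted p under 0.05, 39 were lower (40.6% against 4.1% of all genes) and 1 higher. In 24 of the 96 (4.64% of all genes) every heterozygous library was below every wild-type one. The count of 39 became 18 without wild-type replicate 1, 18 without heterozygous replicate 1 and 19 without heterozygous replicate 4. The highest members, Tprn, Arsa and Rsph6a, had log2 fold changes of only -0.10, -0.08 and -0.15.

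The genes that drive the meiotic divisions followed the same side. Of 18 such genes, 16 were negative, 9 of the 18 (4.1% of all genes) were lower at an unadjusted p under 0.05, 0 were higher and none was called, with a median of -0.29, and 6 of the 18 are also in the diplotene/M1/M2 list. Ccna1, the cyclin A of the male germ line, was at 257, 226 and 244 CPM in wild-type and at 171, 200, 209 and 156 CPM in heterozygous libraries. Its log2 fold change was -0.40 ± 0.12 (SE, adjusted p = 0.54). Aurka, a spindle kinase, was at 261, 209 and 223 against 138, 197, 196 and 120 CPM, with a log2 fold change of -0.50 ± 0.16 (SE, adjusted p = 0.54). Neither gene overlapped between the groups, and in both heterozygous replicates 1 and 4 were the lowest.

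Named after their values were seen, the other 7 of the 9 were Pttg1 (securin), Aurkc, Cdk1, Cdc20, Ccnb1, Nek2 and Bub3. They take part in spindle assembly, entry into division or the release of sister chromatids. The 2 positive genes were Bub1 and Cdc25c, at 0.30 and 0.10. Ccnb2, the third most abundant of the list, was at 176 to 182 against 149 to 188 CPM and overlapped. The count of 9 was 5 without wild-type replicate 1 and 5 without heterozygous replicate 4. It was 6, 10, 10, 8 and 8 without heterozygous replicates 1, 2 and 3 and wild-type replicates 2 and 4.

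**Figure D4:**
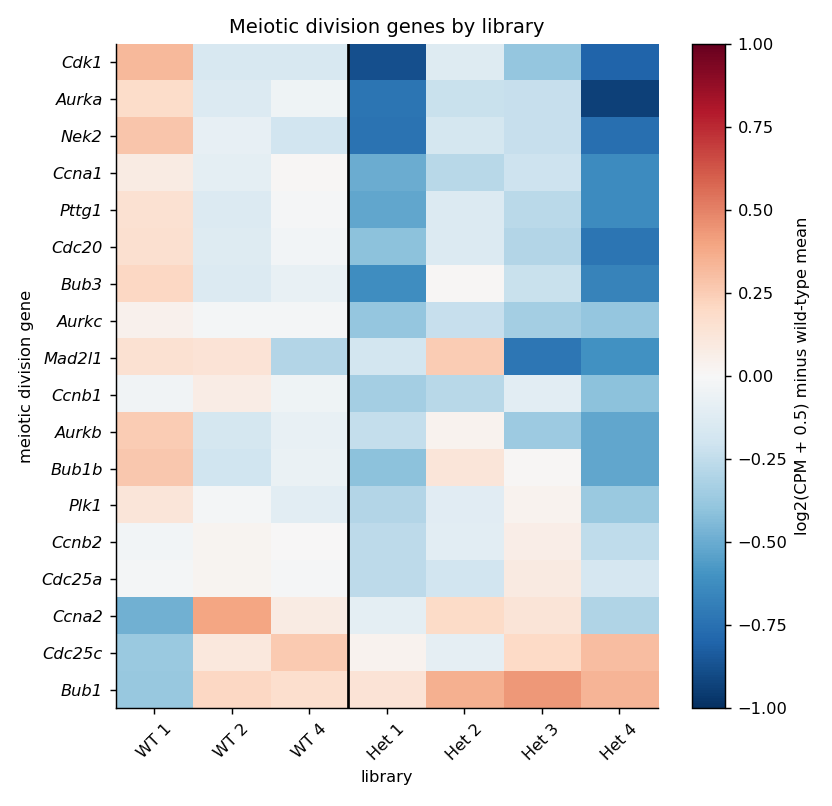
Difference of log2(CPM + 0.5) from the wild-type mean (colour, -1 to 1) for 18 meiotic division genes (rows, ordered by log2 fold change) in the 3 wild-type and 4 heterozygous libraries (columns). Heterozygous replicates 1 and 4 are the bluest for Cdk1, Aurka and Nek2, and Bub1 and Cdc25c at the bottom are not lower.

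Markers of the earliest germ cells had medians on the other side, and pachytene markers on the same side. Of 93 tested leptotene/zygotene markers, 73 were positive, with a median of 0.19 and 12 genes (12.9% against 4.95% of all genes) higher against 1 lower by an unadjusted p under 0.05. Spermatogonia markers (96 tested) had a median of 0.17, also with 12 of 96 higher and 1 lower, and 14 of the 96 are X-linked. Neither list held a called gene. Pachytene markers (90 tested) had a median of -0.16, with 65 negative, 0 higher and 1 lower (1.11% against 4.1% of all genes). Without heterozygous replicate 2, 30 of the 90 were lower, against 1278 of all 18565 genes. Relative to all genes the pachytene median was -0.35 without that library, -0.04 without wild-type replicate 1 and -0.05 without heterozygous replicate 4. The spermatogonia median was 0.06 without heterozygous replicate 2, and the leptotene/zygotene median 0.11 without wild-type replicate 1. The leptotene/zygotene count of 12 was 1 without wild-type replicate 1, and 7, 5 and 21 without heterozygous replicates 2 and 3 and wild-type replicate 2, and 3 with the outlier library added back, where 43 of 93 were positive. The spermatogonia count was 4 without wild-type replicate 1, 4 without heterozygous replicate 2, 6 without wild-type replicate 4, 8 and 18 without heterozygous replicates 3 and 4, and 2 with the outlier library added back. Genes of synapsis and recombination (22 tested) were centred at -0.01, and their most abundant members Stag3, Syce1 and Syce2 were at -0.05, 0.06 and -0.06.

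Most early round spermatid markers had slightly higher means in heterozygous libraries, and none was called. Of 98 tested genes, 91 were positive, with a median of 0.15, and 15 (15.3% against 4.95% of all genes) were higher by an unadjusted p under 0.05, with 0 lower. That pattern rested on wild-type replicate 1. Without it 49 of 98 were positive, the median relative to all genes was 0.01 and 1 gene was higher, and with the outlier library added back 79 were positive and 0 higher. The count was 5 without heterozygous replicate 4, 6 without replicate 3 and 24 without replicate 2. Ccdc81, the most abundant marker, was at 217, 327 and 311 CPM in wild-type and 319, 322, 446 and 413 CPM in heterozygous libraries, so wild-type replicate 1 was the lowest and replicate 2 overlapped the heterozygous values.

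Genes for meeting the egg were also mostly on the positive side. Of 19 genes of sperm-egg fusion and the sperm surface, 17 were positive with a median of 0.24, and 6 (31.6% against 4.95% of all genes) were higher by an unadjusted p under 0.05, with 0 lower and none called. Adam3, needed for sperm to reach and bind the egg, was at 922, 1207 and 1040 CPM in wild-type and at 1318, 1140, 1318 and 1500 CPM in heterozygous libraries. Adam5 was at 832, 1053 and 984 against 1115, 1097, 1207 and 1270 CPM with no overlap, and Clgn, a chaperone of fertilization proteins, at 732 to 897 against 824 to 1088 CPM. Without wild-type replicate 1 the count of 6 was 0 and the median relative to all genes 0.12. The count was 2 and 3 without heterozygous replicates 4 and 3, and it was 1 with the outlier library added back.

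Of 15 tested genes of the CatSper calcium channel and its partners, 13 were positive, with a median of 0.20, and 4 (26.7% against 4.95% of all genes) were higher by an unadjusted p under 0.05, with 0 lower and none called. Catsperg1, an auxiliary subunit, was at 172, 161 and 161 CPM in wild-type and 243, 178, 224 and 213 CPM in heterozygous libraries, with no overlap. Adcy10, the soluble adenylyl cyclase, was at 348 to 433 against 361 to 581 CPM, and the pore subunit gene Catsper2 had a log2 fold change of 0.04. The 20 acrosome genes had a median of 0.10, and 4 of the 20 were higher by the same measure and none called, among them Zp3r and Acrv1, whose proteins the study stained, at 0.37 and 0.34. Both counts of 4 were 0 without wild-type replicate 1, without heterozygous replicate 3 and with the outlier library added back. The acrosome median relative to all genes was 0.04 without wild-type replicate 1, 0.05 without heterozygous replicate 3 and 0.17 without wild-type replicate 4. The CatSper median relative to all genes was 0.08 without wild-type replicate 1 and 0.08 with the outlier library added back. It was 0.30 without wild-type replicate 4 and 0.28 without heterozygous replicate 2. Without heterozygous replicate 4 the counts were 2 (CatSper) and 0 (acrosome), and 2 (CatSper) without wild-type replicate 4. Adam4, the other stained protein, was at 0.17.

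**Figure D5:**
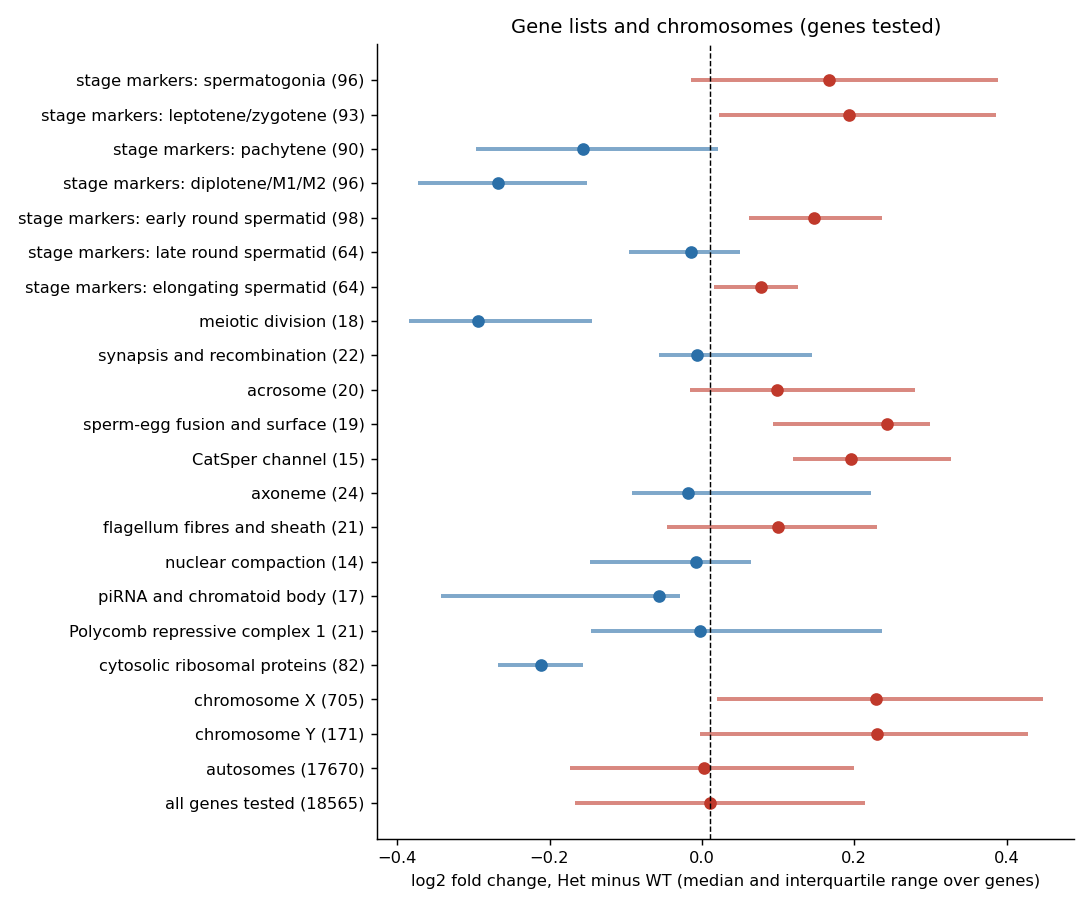
Median (point) and interquartile range over genes (line) of the log2 fold change for stage marker lists, gene roles, the sex chromosomes, autosomes and all tested genes, with the number of genes tested in parentheses and the median of all genes as a dashed line. Diplotene/M1/M2 markers, meiotic division genes and ribosomal protein genes lie below 0 with their whole range, and early round spermatid markers, X-linked genes and sperm-egg fusion genes lie above it.

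Late spermatid genes split the heterozygous libraries rather than the genotypes. The late round spermatid markers (64 tested) had a median of -0.01 and the elongating spermatid markers (64 tested) of 0.08. No gene of either list reached an unadjusted p under 0.05 in edgeR or DESeq2. With the outlier library added back, 63 of the 64 late and 61 of the 64 elongating markers were positive. Their medians relative to all genes were then 0.27 and 0.34. Prm1, a protamine, was at 5361, 4172 and 5394 CPM in wild-type and at 6433, 3187, 2864 and 5392 CPM in heterozygous libraries. Tnp2, a transition protein, was at 4783, 3838 and 4955 against 6247, 2836, 2719 and 5495 CPM, and Prm2 at 11270, 7439 and 7441 against 15520, 5656, 6012 and 9588 CPM. In all of them heterozygous replicates 2 and 3 were below the wild-type libraries and replicate 1 above them, while replicate 4 lay above them for Tnp2 and within their range for Prm1 and Prm2. The nuclear compaction list (14 genes) had a median of -0.01. Relative to all genes it was -0.22 and -0.14 without heterozygous replicates 1 and 4, -0.13 without wild-type replicate 2, 0.08 without heterozygous replicate 3 and 0.20 with the outlier library added back. The part of this split in the other results was not tested. It runs along the diplotene/M1/M2 score, which was 2.62 and 2.52 in heterozygous replicates 1 and 4, 2.87 and 2.90 in replicates 2 and 3, and 2.90 to 3.10 in wild-type libraries.

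Most ribosomal protein genes had slightly lower means in heterozygous libraries. Of 82 tested genes of the cytosolic ribosome, 80 were negative, with a median of -0.21. In 31 (37.8% against 4.64% of all genes) every heterozygous library was below every wild-type one. At an unadjusted p under 0.05, 11 (13.4% against 4.1% of all genes) were lower and 0 higher, and none was called. Rplp0, a protein of the ribosomal stalk, was at 806, 746 and 775 CPM in wild-type and at 708, 642, 636 and 733 CPM in heterozygous libraries. Rps14 was at 445, 418 and 535 against 387, 348, 349 and 359 CPM, while Rpl41 overlapped at 377 to 530 against 326 to 536 CPM. The count of 11 was 3 without wild-type replicate 4, and 2 and 5 without heterozygous replicates 3 and 4. With the outlier library added back it was 0, 15 of the 82 were positive and the median relative to all genes was -0.10. Null libraries did not share the shift evenly, with list scores of 3.93, 3.70, 3.41 and 3.42 in replicates 1 to 4 against 3.62 to 3.78 in wild-type and 3.38 to 3.64 in heterozygous libraries. Many ribosomal protein genes have processed copies elsewhere that can take reads.

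The genes of the flagellum, of piRNAs and of spermatid transcription came next. The 24 axoneme genes had a median of -0.02, with Rsph1, Dnah8 and Tekt2 at -0.10, 0.08 and -0.06. The 21 genes of flagellar fibres and sheath had a median of 0.10, with Odf2, the main outer dense fibre gene, at 0.10 and Ldhc, the germ cell lactate dehydrogenase, at -0.12. Without heterozygous replicate 1 the median relative to all genes turned to -0.08, with 6 of 21 positive. It was 0.20 without heterozygous replicate 2 and 0.26 with the outlier library added back. Without wild-type replicates 1, 2 and 4 it was 0.18, 0.02 and 0.04. The 17 piRNA and chromatoid body genes had a median of -0.06, and Mael, Tdrd6 and Ddx25 were at -0.06, 0.00 and -0.06. At an unadjusted p under 0.05, 1 of the 17 was lower (5.88% against 4.1% of all genes) and 1 higher (5.88% against 4.95%). Without heterozygous replicate 2, 6 of the 17 were lower, against 1278 of all 18565 genes. The median relative to all genes was -0.11 without that library, -0.13 without heterozygous replicate 3, -0.11 without wild-type replicate 2 and -0.13 with the outlier library added back. The 13 regulators of transcription in spermatids had a median of 0.10, with Rfx2, Tbpl1 and Tcfl5 at 0.05, -0.19 and -0.08. Relative to all genes that median was 0.03 without wild-type replicate 1 and 0.02 with the outlier library added back.

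The 17 genes of the sex body and DNA damage signalling, which set up silencing of the X and Y in spermatocytes, had a median of -0.13 with 2 higher (11.8% against 4.95% of all genes) and 1 lower (5.88% against 4.1%) at an unadjusted p under 0.05. Relative to all genes the median turned to 0.02 without heterozygous replicate 4, and it was -0.01, -0.09 and -0.07 without wild-type replicates 2 and 1 and heterozygous replicate 1. It was -0.23 without heterozygous replicate 2 and -0.23 without replicate 3. Mdc1 was at 104 to 136 CPM in wild-type and 79.9 to 120 CPM in heterozygous libraries, and Atr at 56.3 to 83.3 against 72.9 to 132 CPM. The 10 tested stress and immediate early genes had a median of 0.01, and Dnajb1, a heat shock cochaperone, was at 557 to 611 against 481 to 515 CPM with no overlap (log2 fold change -0.24, adjusted p = 0.54). The 10 mitochondrially encoded genes had a median of 0.32, with 8 positive, 1 higher and 1 lower at an unadjusted p under 0.05, and none called. In 3 of the 10 (4.23% of all genes) every heterozygous library was above every wild-type one. The highest, mt-Co1, overlapped at 3597 to 5177 against 2834 to 5417 CPM. Without wild-type replicate 2 the median relative to all genes was 0.16.

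Markers of other testis cells were compared as a check. Macrophage markers (9 tested) had a median of 0.50, with 3 of the 9 higher (4.95% of all genes) and 0 lower at an unadjusted p under 0.05, and their sum was 33.8 to 51.5 CPM in wild-type and 32.0 to 70.5 CPM in heterozygous libraries. Of the 9, 7 were positive, and the count of 3 was 1 without wild-type replicate 1. The most abundant of them, Apoe, C1qb and Mrc1, had log2 fold changes of -0.01, -0.06 and 0.20, and the first 2 were the negative members. Medians were -0.03 for Sertoli (12 tested), -0.35 for Leydig (7), -0.09 for peritubular myoid (6), 0.17 for endothelial (6) and 1.02 for red blood cell markers (3), with 1 higher among the endothelial markers, 1 higher among the red blood cell markers and 1 lower (4.1% of all genes) among the Leydig markers. These medians hung on single libraries. Relative to all genes, that of Sertoli markers was 0.32 without wild-type replicate 1, 0.20 without heterozygous replicate 1 and -0.31 without heterozygous replicate 2. That of Leydig markers ran from -0.76 without wild-type replicate 2 to -0.08 without wild-type replicate 1. The endothelial median was -0.03 without wild-type replicate 1, and the red blood cell median 0.52 without wild-type replicate 2. The part of other cells in the results above was not tested.

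By class of gene, processed pseudogenes (492 tested) had a median of 0.09. At an unadjusted p under 0.05, 29 were higher (5.89%, near the 4.95% of all genes) and 6 lower (1.22% against 4.1%). Unprocessed pseudogenes (210 tested) had 13 higher (6.19%, also near it) and 0 lower (4.1% of all genes). Their median was 0.23, and 73.3% were positive against 51.6% of all genes. Their list score was -2.89, -2.46 and -2.43 in wild-type replicates 1, 2 and 4. In heterozygous libraries it was -2.55 to -2.32, so the groups overlapped and wild-type replicate 1 was the lowest. Protein-coding genes (14242 tested) had a median of 0.01, with 753 higher and 650 lower. Pseudogenes share reads with their parent genes, so their counts are uncertain.

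The heterozygous effect was also set against that in spermatocytes of the same genotypes (4 wild-type and 3 heterozygous libraries). A further spermatocyte library of each of these genotypes is called an outlier by its label and was left out. The difference of the 2 effects gave 0 calls in edgeR, with 1471 genes at an unadjusted p under 0.05, and 0 calls in DESeq2. The called genes were higher in carriers in both fractions. In spermatocytes Gm10093 was at 1.45 to 2.73 CPM in wild-type and 12.9 to 16.2 CPM in heterozygous libraries, Gm4864 at 0 and at 4.03 to 5.15 CPM, Tyr at 0 and at 0.699 to 2.55 CPM, and Phc2 at 28.4 to 33.4 and at 49.0 to 67.5 CPM. Unadjusted p for a difference between fractions were 0.91 for Gm10093 and 0.66 for Phc2. Gm4864 and Tyr had no counts in the wild-type libraries of either fraction, so for them this difference cannot be estimated. The left-out wild-type round spermatid library had 31 counts of Gm10093 and none of Gm4864 or Tyr, as the wild-type libraries used here.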

How the data were processed

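The authors trimmed paired reads of strand-specific poly(A) libraries with Trim Galore, aligned them to mm10 with STAR and deposited its raw counts per gene, which hold reads with a single alignment. The annotation release and strand column are not given in the sources used here. All 55536 identifiers matched GENCODE M21 (GRCm38), which gave symbols and coordinates.

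Counts were tested with edgeR 4.0.16 (R 4.3.3; quasi-likelihood, TMM, Benjamini-Hochberg over all tested genes) in 1 fit of the 11 round spermatid libraries, with DESeq2 1.42.0 and other settings as alternatives. P-values without a tool are edgeR's. Levels are TMM-scaled CPM. List scores used log2 CPM with a prior count of 2. Floors of 3 counts cover counting error only.

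Named genes were taken from those called by edgeR or DESeq2, the 8 of smallest p in each direction, Ago1 to Ago4, the 3 most abundant genes of each list and of the X chromosome, and genes within 5 Mb of Ago1 with an unadjusted p under 0.05, except 1 result that is not reported here. Members and lists were chosen with earlier results of these data known. Stage lists are the study's wild-type single-cell markers. Lists are described by counts and medians, without a test. No 2 libraries within the wild-type group or within the heterozygous group were repeat deposits (chi-square per gene of at least 11.1). Other pairs were not compared.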

Additional observations from a re-analysis of the deposited data

Results flagged for a closer look

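In 71 checks of the 4 heterozygous libraries, 3 genes had a library far from the other 3 by Dixon's criterion, and chance alone flags about 1 in 20. Ago4 was highest in heterozygous replicate 2 at 14.6 CPM, against 11.5 to 11.96 CPM in the others. Hdac1 was highest in replicate 3 at 214 CPM, against 179 to 182 CPM. Ndufs5 was highest in replicate 4 at 29.7 CPM, against 23.1 to 23.99 CPM. No list score met the criterion.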

How the results depend on the processing

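The count of 4 called genes was 3 to 6 under the alternatives: 6 with DESeq2 and with no filter on low counts, 4 with DESeq2's size factors, with only the 7 compared libraries, with the outlier library added back and with no minimum fold change, 3 with a replicate block, and 3 to 4 with 1 library left out. Gm10093, Gm4864 and Tyr were called in every edgeR fit, and DESeq2 gave the last 2 no adjusted p. Replicate numbers did not pair the libraries (correlations of deviations -0.15, -0.04 and 0.02), and under the block Phc2 had an adjusted p of 0.23. Ago1 stayed between -0.61 and -0.23 with 1 library left out and was at -0.78 with the outlier library added back. Ago2 turned to 0.16, 0.11 and 0.02 without wild-type replicate 1, heterozygous replicate 1 and heterozygous replicate 4, in a range of -0.30 to 0.16. The X-linked shift was 0.18 to 0.27 with 1 library left out. Stage list medians relative to all genes then ranged from 0.06 to 0.23 for spermatogonia, 0.11 to 0.25 for leptotene/zygotene, -0.35 to -0.04 for pachytene, -0.33 to -0.19 for diplotene/M1/M2, 0.01 to 0.26 for early and -0.21 to 0.12 for late round spermatids, and -0.19 to 0.23 for elongating spermatids, the last 2 turning in sign. The leptotene/zygotene median was 0.0017 with the outlier library added back. Null against heterozygous gave 20 calls with DESeq2, 1 with the block, and 1 to 2 with 1 library left out. The difference between fractions stayed at 0 calls. With no filter on low counts, 1624 genes were higher against 615 lower by an unadjusted p under 0.05. The cause of these shifts was not tested. Pools of 3 and 4 per group limit the precision.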

Other observations

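Guca2b and Ttc22, named after their values were seen, were not called (adjusted p = 0.54 for both) but differed among the heterozygous libraries. Guca2b, which encodes uroguanylin, had 0.750, 0.993 and 0.894 CPM in heterozygous replicates 1 to 3 and no counts in replicate 4, in the wild-type libraries or in the null libraries. Ttc22 was at 1.34, 2.85 and 2.87 CPM in heterozygous replicates 1 to 3, had no counts in replicate 4, and was at 0.122 to 0.316 CPM in wild-type and 0.0887 to 0.159 CPM in null libraries. Heterozygous replicate 4 thus stood apart for both genes. C1qc, a complement gene of macrophages, was also named after its values were seen. It was at 0.081, 0.632 and 0 CPM in wild-type and at 1.98, 1.30, 1.08 and 1.22 CPM in heterozygous libraries (adjusted p = 0.54). It was called when wild-type replicate 2, the wild-type library with its highest level, was left out. The more abundant macrophage markers Apoe and C1qb had slightly negative log2 fold changes.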
